A study of Saccharomyces cerevisiae with 10 samples.

Results

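The genes nearest the chromosome ends of budding yeast were followed across 5 strains that differ in the histone methyltransferase genes SET1 and SET5. Systematic yeast gene names number the genes of each chromosome arm outward from the centromere, so the highest numbers lie nearest the telomere. On each of the 32 arms, all features with one of the 8 highest distinct numbers in the table were taken, which gave 311 features. The 44 features of the COS, PAU, YRF1, FLO, FIT, ARN and PHO families and 3 Ty reading frames were left out. The remaining 264 genes, of 6663 features in all, are called end genes here. Their place is counted inward, so that place 1 is the outermost number of an arm. The choice used position and names alone, not measured values.

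Polyadenylated RNA was sequenced from haploid cells of the laboratory strain BY4741, grown in rich glucose medium at 30 °C and collected in mid-log phase. The strains were set1∆ set5∆, which lacks both genes, set1∆, SET5 Y402A, in which Set5 carries a substitution, set5∆, and WT. The labels give 2 biological replicates for each strain and 10 libraries in all, but the deposited table holds 1 value per gene and strain, taken to be FPKM, read fragments scaled to transcript length and sequencing depth. No value below therefore has a replicate error, no test was run, depth is unknown, and each difference describes these strain values alone. Whether a strain was 1 clone is not stated in the labels.

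Genes near yeast telomeres are held down by silent chromatin, which is built by the Sir2, Sir3 and Sir4 proteins and recruited by Rap1 and the Ku complex at the telomere. Set1 methylates histone H3 at lysine 4 and Set5 methylates the tail of histone H4, and SET1 is long known to be needed for full silencing near telomeres. The ends themselves carry X elements and, on many arms, Y′ elements with helicase-like reading frames. Inward of these lie gene families for sugar uptake, alcohol and aldehyde metabolism, vitamin synthesis and stress, many of them present in near-identical copies on several arms.

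The targeted genes stood as the labels say. SET1 was at 0.0324 FPKM in set1∆ set5∆ and 0.0328 in set1∆, 25.6 in SET5 Y402A, 24.2 in set5∆ and 24.3 in WT. SET5 was at 0.0167 FPKM in set1∆ set5∆ and 0.0545 in set5∆, 37.8 in set1∆, 41.8 in SET5 Y402A and 34.6 in WT. The end genes were scarce transcripts. A mean of 1 FPKM or more was asked of a gene to enter a comparison, which 240 of the 264 met and 24 did not. The median of the mean level was 9.90 FPKM over the 240 end genes and 44.2 FPKM over the 6541 features compared. Among the 240, 120 had a mean under 10 FPKM, while 748 (11.4%) of all features did. The 240 comprised 107 coding genes with a gene name, 77 coding genes with a systematic name only, 6 pseudogenes and 50 features that are absent from the RefSeq annotation and are given by identifier alone.

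The end genes stood highest, by their median, in the double deletion. The median level over the 240 was 11.8 FPKM in set1∆ set5∆, 10.002 in set1∆, 9.68 in SET5 Y402A, 9.13 in set5∆ and 8.74 in WT. Of the 240, 127 (52.9%) had their highest value in set1∆ set5∆, against 27.0% of all features compared. The other end genes peaked in SET5 Y402A (36 genes, against 22.3% of all features), WT (30, 19.4%), set1∆ (24, 16.4%) or set5∆ (23, 14.9%). All 4 of those counts are smaller shares of the 240 than the share over all features.

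Differences are given as log2 ratios of FPKM + 1, which understates the differences of scarce transcripts. In set1∆ set5∆ against WT the median over end genes was 0.28, while that over all features was 0.01. At least 2-fold higher were 36 of 240 end genes (15.0%), against 2.83% of all features, and 1 end gene was at least 2-fold lower, against 0.520%. In set1∆ against WT the median was 0.08, and 23 end genes (9.58%) were at least 2-fold higher, against 2.37% of all features, and 2 lower, against 0.489%. Of the 36 genes, 6 were listed at 0 in some strain, and of the 23, 5 were. Entry needed a mean of 1 FPKM over all 5 strains, for end genes and all features alike. Some scarce end genes, such as YMR324C, reached it only through the strains without SET1. Being compared already required those genes to be high there, and how many they are was not counted. Deleting SET1 in cells that already lacked SET5 gave a like picture. In set1∆ set5∆ against set5∆ the median was 0.30, with 34 end genes (14.2%) at least 2-fold higher, against 2.86% of all features, and 0 lower, against 1.07%. By any amount, 171 of 240 end genes were higher in set1∆ set5∆ than in WT, against 50.6% of all features, 145 in set1∆ than in WT, against 49.6%, and 175 in set1∆ set5∆ than in set5∆, against 50.5%. After quantile normalization the median of set1∆ set5∆ against WT was 0.056, against -0.029 over all features. At least 2-fold higher were then 20 end genes. For set1∆ against WT the median was -0.061, against -0.030, with 14 higher. For set1∆ set5∆ against set5∆ it was 0.069, against -0.008, with 15 higher and 6 lower. Shares of all features past 2-fold were not computed under that step, so these counts have no background. The lower counts of each comparison are given with the other settings below. These comparisons share strain values and are not independent of each other.

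Loss of SET5 alone left the end genes almost level with WT. In set5∆ against WT the median was 0.01, and 5 end genes (2.08%) were at least 2-fold higher, against 0.994% of all features, with 3 lower, against 0.581%. In SET5 Y402A against WT the median was 0.04, and 7 (2.92%) were at least 2-fold higher, against 1.83%, with 0 lower, against 0.321%. By any amount, 127 end genes were higher in set5∆ than in WT, against 50.1% of all features, and 138 in SET5 Y402A than in WT, against 48.5%. More end genes were higher by any amount where SET5 was lost from cells without SET1. The count at least 2-fold higher, 6, lay between the 5 and 7 above. In set1∆ set5∆ against set1∆, 186 of 240 end genes were higher by any amount, against 50.1% of all features, and the median was 0.16, against 0.00. The single differences were small, and 6 end genes (2.50%) were at least 2-fold higher, against 0.566% of all features, and 0 were 2-fold lower, against 0.352%. Of these 6, 4 were listed at 0 in some strain, which leaves 2 of the 234 genes above 0 in every strain (0.855%). Likewise 3 of the 5 genes at least 2-fold higher in set5∆ than in WT were listed at 0 in some strain, which also leaves 2. Whether the effect of SET5 loss differs between cells with and without SET1 could not be tested with 1 value per strain.

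The excess over set1∆ was largest at places 1 and 2. All 35 compared genes at place 1, on 23 arms, were higher in set1∆ set5∆ than in set1∆, by a median log2 ratio of 0.32, and after quantile normalization all 35 were still higher, by a median of 0.31. At place 2, 21 of 22 were higher, with a median of 0.42. The median was then 0.23 at place 3, 0.19 at place 4, 0.09 at place 5, 0.12 at place 6, 0.08 at place 7 and 0.07 at place 8. Further inward, over features outside the same families, it was 0.03 at places 9 to 12, 0.03 at places 13 to 16, -0.00 at places 17 to 24 and 0.02 at places 25 to 40. In all, 99 of 110 genes at places 1 to 4 and 87 of 130 at places 5 to 8 were higher in the double deletion.

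**Figure D1:**
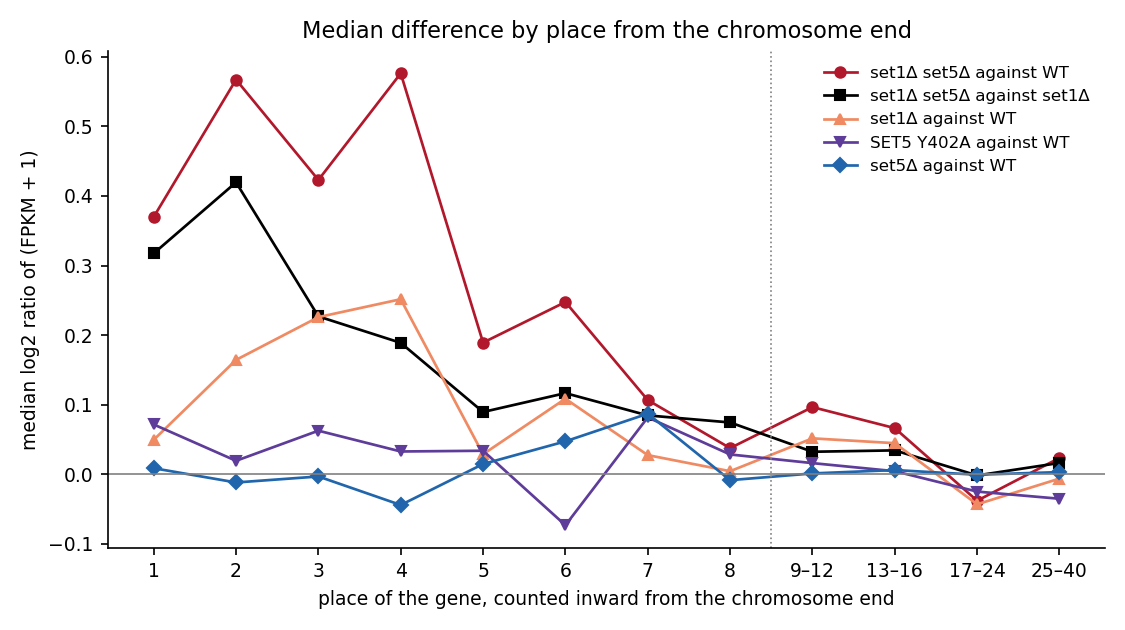
Median log2 ratio of FPKM + 1 (vertical axis) by place from the chromosome end (horizontal axis), with 1 line for each comparison; the dotted line marks the limit of the end genes. The lines of set1∆ set5∆ against WT and against set1∆ stand highest at places 1 to 4, with medians of 0.45 and 0.28 over those places, and come close to 0 from place 17 inward.

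Against WT the medians of the same strain depended on the scaling. The median of set1∆ set5∆ against WT was 0.37 at place 1, 0.57 at place 2, 0.42 at place 3 and 0.58 at place 4. After quantile normalization it was 0.16 at place 1, with 23 of 35 genes higher, 0.25 at place 2, with 14 of 22 higher, and 0.20 over places 1 to 4. Over places 5 to 8 it was then -0.036, with 63 of 130 genes higher. Without that step it was 0.19 at place 5, 0.25 at place 6, 0.11 at place 7 and 0.04 at place 8. At place 9, just outside the limit, it was 0.14. In set1∆ against WT, by contrast, the median was 0.05 at place 1, with 21 of 35 genes higher, and -0.20 after quantile normalization, with 15 higher. The medians were 0.16, 0.23 and 0.25 at places 2, 3 and 4. In set5∆ against WT the medians of places 1 to 4 lay between -0.04 and 0.01, and in SET5 Y402A against WT between 0.02 and 0.07.

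The single place 1 gene with a gene name, GEX2, a glutathione exchanger at the right end of chromosome XI, was at 5.57 FPKM in set1∆ set5∆, 4.84 in set1∆, 5.06 in SET5 Y402A, 4.32 in set5∆ and 2.55 in WT, so that WT was lowest. YHR219W, at the right end of chromosome VIII, was at 45.5 FPKM in set1∆ set5∆, 33.2 in set1∆, 31.9 in SET5 Y402A, 32.5 in set5∆ and 31.1 in WT, and only the double deletion stood apart. YFL068W, at the left end of chromosome VI, was at 74.3 FPKM in set1∆ set5∆, 59.8 in set1∆, 75.7 in SET5 Y402A, 72.9 in set5∆ and 71.1 in WT, so that set1∆ alone was low. The excess over set1∆ at place 1 thus joins genes that were high in the double deletion and genes that were low in set1∆.

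**Figure D2:**
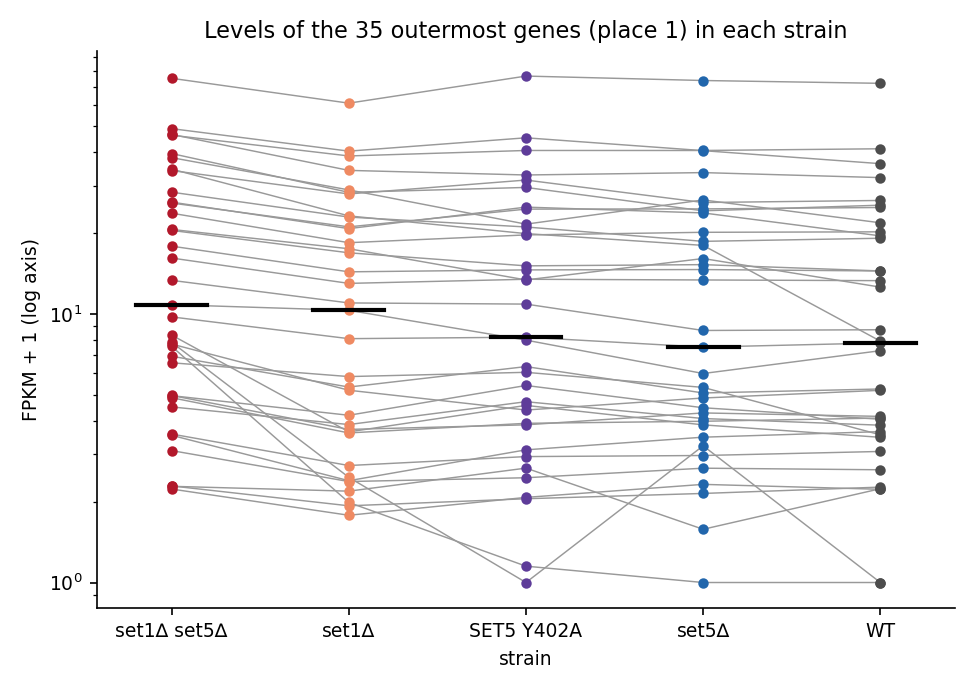
FPKM + 1 (vertical log axis) of the 35 compared genes at place 1 in each strain (horizontal axis), with a grey line for each gene and a black bar at the median. Each of the 35 lines is higher at set1∆ set5∆ than at set1∆, and 34 of them are higher there than at WT (23 after quantile normalization).

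Sequence shared between ends limits what these outermost values say. Only 1 of the 35 place 1 genes, YFR057W, had at least 95% of its 50-base sequences at a single position in the genome, 13 had less, and 21 could not be matched to the annotation. Over all end genes, 88 compared genes reached 95%. Among these unique genes 62 of 88 (70.5%) were higher in set1∆ set5∆ than in set1∆, against 49.4% of all 5580 unique features, with a median of 0.09, and at places 1 to 4 it was 22 of 23, with a median of 0.22. Among the 102 genes under 95% it was 84, with a median of 0.22. Against WT, the unique genes had a median of 0.08, with 8 (9.09%) at least 2-fold higher, against 2.11% of all unique features. The others had a median of 0.36, with 18 of 102 at least 2-fold higher. The share was 2.83% of all features, but most of those are unique. It is thus not a like background for the 102, and the share over all repeated features was not computed. At places 1 to 4 the 23 unique genes had a median of 0.52 against WT, and at places 5 to 8 the 65 unique genes had 0.02. The 5 values were identical for ERR1 and ERR2 and for 3 other pairs of end genes. Of the 190 compared end genes found in the annotation, 14 overlap another annotated gene, many of them on the same strand. The 50 compared end genes absent from it, 21 of them at place 1, could not be checked for overlap. Reads from a shared stretch cannot be told apart here on either strand.

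The 11 helicase-like reading frames of Y′ elements that do not bear a YRF1 name show the pattern in repeated sequence. All 11 were higher in set1∆ set5∆ than in set1∆, by log2 ratios between 0.26 and 0.58 with a median of 0.33, and 0 of them reached 2-fold. All 11 were also higher than in WT, with a median of 0.31. In set1∆ against WT the median was -0.01, with a range from -0.31 to 0.41. YJL225C, at the left end of chromosome X, was at 16.9 FPKM in set1∆ set5∆, 13.3 in set1∆, 13.6 in SET5 Y402A, 13.6 in set5∆ and 13.4 in WT, so that 4 strains were level and the double deletion was above them. YLL066C, on the left arm of chromosome XII, was at 25.02 FPKM in set1∆ set5∆, 19.7 in set1∆, 23.8 in SET5 Y402A, 24.4 in set5∆ and 24.6 in WT, where set1∆ was the low strain. These frames share almost all of their sequence, so their values are not 11 separate measurements.

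Scarce transcripts were higher in strains without SET1 across the whole table, and end genes are scarce, so the 2 groups were set side by side at like mean levels. The mean was taken over all 5 strains, those compared included. A scarce gene could thus enter a range through the strain in which it was high, so like means are not like levels in WT. Between 1 and 3 FPKM, the median of set1∆ set5∆ against WT was 0.90 over 36 end genes and 0.49 over 144 other features. Between 3 and 10 FPKM it was 0.39 and 0.26, between 10 and 30 FPKM 0.23 and 0.08, between 30 and 100 FPKM 0.01 and -0.01, and above 100 FPKM -0.02 and -0.13. For set1∆ against WT the medians of end genes and other features were 0.67 and 0.47 in the lowest of these ranges, 0.20 and 0.20 in the next, 0.01 and 0.06 between 10 and 30 FPKM, and -0.02 and -0.01 between 30 and 100 FPKM. At least 2-fold higher in set1∆ set5∆ than in WT were 18 of 36 end genes and 26 of 144 other features between 1 and 3 FPKM. Of these, 4 end genes and 3 other features were listed at 0 in some strain. Between 3 and 10 FPKM the shares were 13.1% and 9.71%. For set1∆ against WT the same shares were 30.6% and 18.1% between 1 and 3 FPKM, and 8.33% and 9.30% between 3 and 10 FPKM. End genes thus did not exceed the others between 3 and 10 FPKM. Between 10 and 30 FPKM the shares were 4.35% (3 of 69 end genes) and 1.38%. Between 30 and 100 FPKM they were 5.88% (2 of 34) and 0.720%, and above 100 FPKM 0% and 1.23%. In each of the ranges from 10 to 30 and from 30 to 100 FPKM, 1 of these end genes was listed at 0 in some strain. The part of transcript level in the set1∆ difference was not tested beyond these values.

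For set1∆ set5∆ against set1∆ the medians of the other features lay between -0.03 and 0.05, and those of the end genes were above them at every level, by least among abundant genes. The medians were 0.28 and 0.02 between 1 and 3 FPKM, 0.15 and 0.05 between 3 and 10 FPKM, 0.20 and 0.01 between 10 and 30 FPKM, 0.06 and -0.00 between 30 and 100 FPKM, and 0.02 and -0.03 above 100 FPKM, with end genes given ahead of other features. Among the 48 genes of at least 10 FPKM at places 1 to 4, the median was 0.29 and 45 were higher. Among the 72 genes of at least 10 FPKM at places 5 to 8 it was 0.04.

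**Figure D3:**
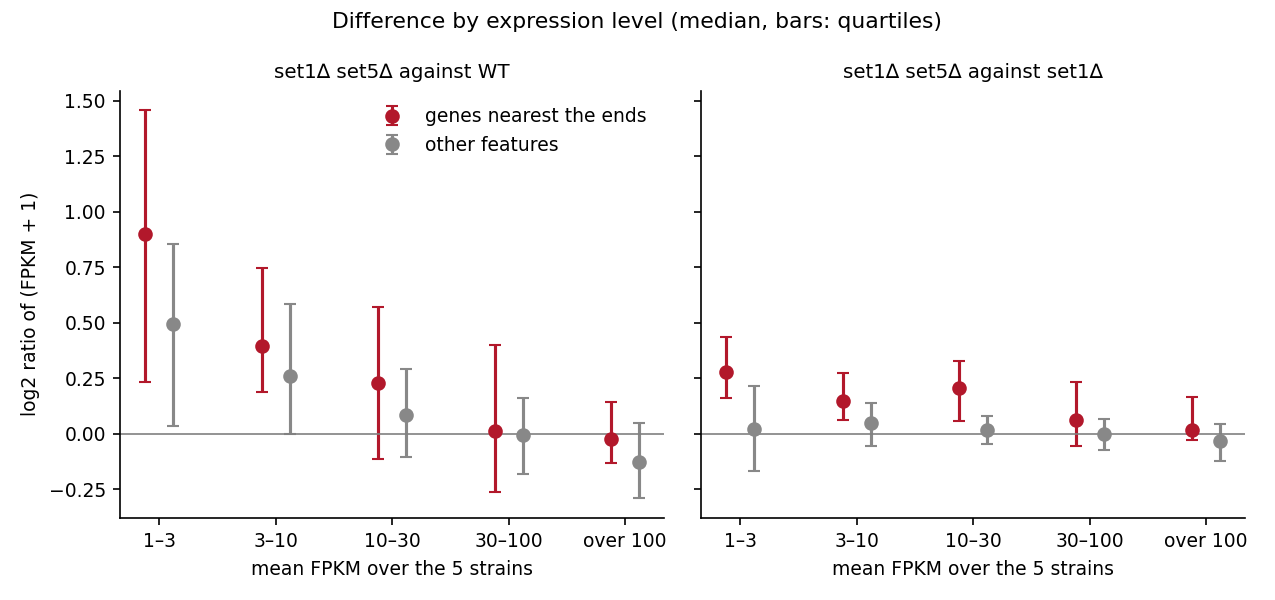
Log2 ratio of FPKM + 1 (vertical axis) by mean FPKM over the 5 strains (horizontal axis) for end genes (red, left point of each pair) and all other features (grey), as medians with bars from the lower to the upper quartile. In set1∆ set5∆ against WT, at left, the medians of both groups are highest between 1 and 3 FPKM (0.90 and 0.49), while in set1∆ set5∆ against set1∆, at right, those of the other features stay between -0.03 and 0.05.

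By arm, the median of set1∆ set5∆ against set1∆ was above 0 at 32 of 32 ends, between 0.02 and 0.40. Against WT it was above 0 at 29 of 32, between -0.23 and 1.24. The median of set1∆ against WT was above 0 at 21 arms, that of SET5 Y402A against WT at 22 and that of set5∆ against WT at 18. The right end of chromosome IX had the highest median against WT, followed by the right end of chromosome I at 1.21, the left end of chromosome VII at 1.10 and the left end of chromosome XV at 0.89. The lowest were the right ends of chromosomes XVI and IV, at -0.23 and -0.14.

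**Figure D4:**
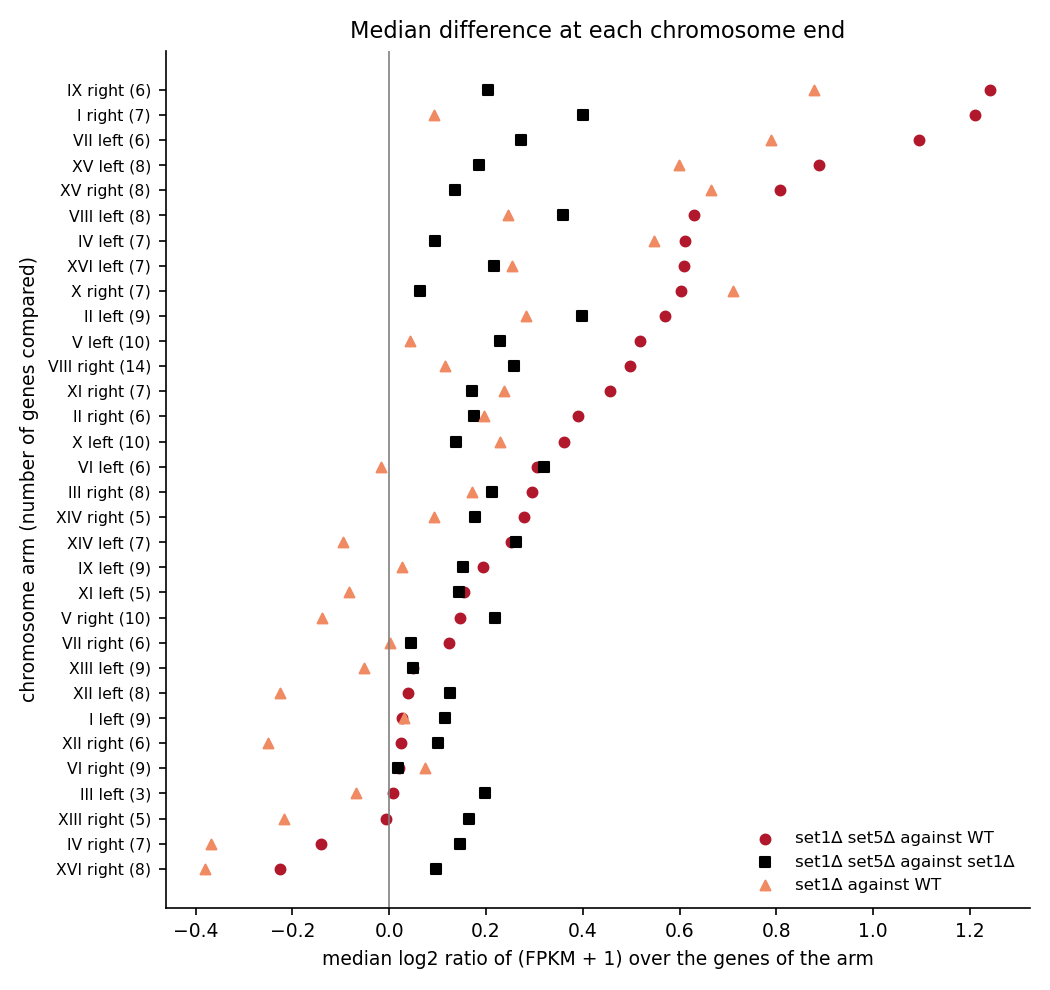
Median log2 ratio of FPKM + 1 over the compared end genes (horizontal axis) for each of the 32 chromosome arms (vertical axis, with the number of genes in brackets), ordered by set1∆ set5∆ against WT. The black squares of set1∆ set5∆ against set1∆ all lie to the right of 0, between 0.02 and 0.40, while the red circles of set1∆ set5∆ against WT run from -0.23 to 1.24.

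At the right end of chromosome IX the compared genes at places 1 to 6 were high together and those at places 7 and 8 were not. YIR044C, at place 1, was at 33.6 FPKM in set1∆ set5∆, 22.2 in set1∆, 18.9 in SET5 Y402A, 16.98 in set5∆ and 6.92 in WT. YIR043C, a pseudogene at place 2, was at 8.94 FPKM in set1∆ set5∆, 4.14 in set1∆, 5.16 in SET5 Y402A, 2.85 in set5∆ and 1.77 in WT. YIR042C, at place 3, was at 15.5 FPKM in set1∆ set5∆, 13.6 in set1∆, 15.8 in SET5 Y402A, 11.1 in set5∆ and 7.02 in WT. In all 3, WT was the lowest strain and each mutant was above it. YPS6, an aspartyl protease of the cell surface at place 6, was at 11.3 FPKM in set1∆ set5∆, 9.44 in set1∆, 5.49 in SET5 Y402A, 3.71 in set5∆ and 3.51 in WT, with a log2 ratio of 1.45 for the double deletion. The next genes inward, GTT1 for a glutathione transferase and HYR1 for a thiol peroxidase, were nearly level. GTT1 was at 113 FPKM in set1∆ set5∆ and 105 in WT, and HYR1 at 393 and 355.

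At the left end of chromosome VII the genes at places 2 to 6 were likewise above WT. YGL262W, at place 2, was at 5.49 FPKM in set1∆ set5∆, 3.67 in set1∆, 0.565 in SET5 Y402A, 0.833 in set5∆ and 0.302 in WT, so that the strains without SET1 stood above the other 3. YPS5, a relative of YPS6 at place 5, was at 8.03 FPKM in set1∆ set5∆, 5.36 in set1∆, 3.90 in SET5 Y402A, 2.02 in set5∆ and 1.87 in WT. YGL258W-A, a short coding gene at place 6 with unique sequence, was at 26.2 FPKM in set1∆ set5∆, 19.5 in set1∆, 9.56 in SET5 Y402A, 4.76 in set5∆ and 1.96 in WT. It had the highest log2 ratio against WT, 3.20, of the end genes that were above 0 in every strain. The genes inward of it were lower than in WT. MNT2, a mannosyltransferase of the Golgi, was at 50.5 FPKM in set1∆ set5∆ and 64.2 in WT, and ADH4, an alcohol dehydrogenase, at 64.1 and 83.0.

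At the left end of chromosome XV, 4 genes with unique sequence were high beside AAD15, an alcohol dehydrogenase relative. YOL163W was at 13.1 FPKM in set1∆ set5∆, 10.1 in set1∆, 5.50 in SET5 Y402A, 5.25 in set5∆ and 6.24 in WT. YOL162W was at 7.23 FPKM in set1∆ set5∆, 6.77 in set1∆, 3.36 in SET5 Y402A, 3.05 in set5∆ and 2.52 in WT. YOL160W was at 9.43 FPKM in set1∆ set5∆, 8.42 in set1∆, 3.86 in SET5 Y402A, 2.76 in set5∆ and 2.91 in WT. In each, both strains without SET1 were above the other 3. BDS1, an alkylsulfatase gene among them, was at 16.3 FPKM in set1∆ set5∆ and 19.04 in WT. YOL164W-A was at 72.4 FPKM in set1∆ set5∆, 61.5 in set1∆, 23.9 in SET5 Y402A, 26.3 in set5∆ and 40.7 in WT, so that the strains lacking SET1 were above WT and the SET5 mutants below it.

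**Figure D5:**
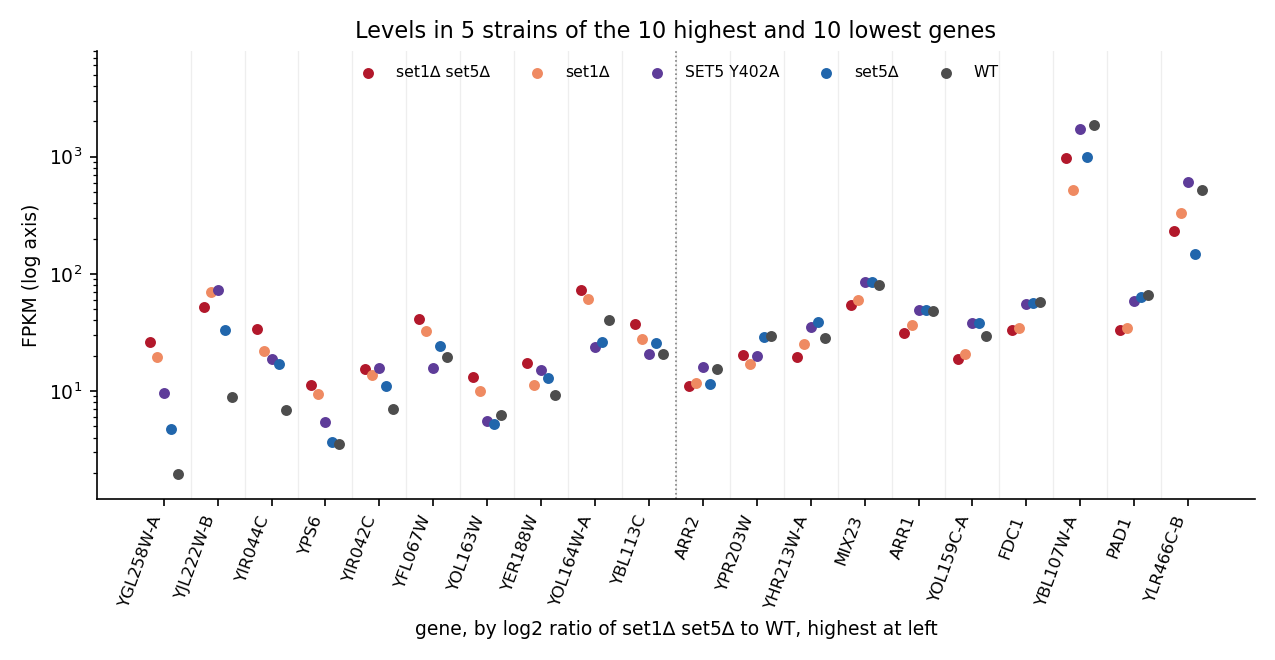
FPKM (vertical log axis) in the 5 strains of the 10 end genes with the highest and the 10 with the lowest log2 ratio of set1∆ set5∆ to WT (horizontal axis), among genes above 0 in every strain with at least 10 FPKM in the higher of the pair. On the left, YGL258W-A stands at 26.2 FPKM in set1∆ set5∆ and 1.96 in WT, and on the right PAD1 stands at 33.1 in set1∆ set5∆ and 65.5 in WT.

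Lower end genes included neighbours on the right arms of chromosomes IV and XVI. PAD1 and FDC1 are neighbours whose products act together to decarboxylate phenylacrylic acids. PAD1 was at 33.1 FPKM in set1∆ set5∆, 34.3 in set1∆, 58.7 in SET5 Y402A, 63.2 in set5∆ and 65.5 in WT. FDC1 was at 32.9 FPKM in set1∆ set5∆, 34.4 in set1∆, 55.6 in SET5 Y402A, 56.6 in set5∆ and 57.7 in WT. In both genes the strains without SET1 were low and the other 3 were level, with log2 ratios to WT of -0.96 and -0.79 in the double deletion. ARR1, the regulator of the arsenic resistance genes, was at 31.5 FPKM in set1∆ set5∆, 36.6 in set1∆, 49.6 in SET5 Y402A, 48.9 in set5∆ and 48.6 in WT. ARR3, which exports arsenite, was at 5.75 FPKM in set1∆ set5∆, 5.17 in set1∆, 7.29 in SET5 Y402A, 6.57 in set5∆ and 8.14 in WT. ARR2, the arsenate reductase between them, was at 10.95, 11.8, 15.9, 11.4 and 15.4 FPKM in the same order of strains. The 3 genes thus had their lowest values among the strains without SET1.

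Only 1 end gene was at least 2-fold lower in the double deletion. YLR466C-B, absent from the annotation, was at 232 FPKM in set1∆ set5∆, 331 in set1∆, 612 in SET5 Y402A, 147 in set5∆ and 517 in WT. YBL107W-A, the end gene with the highest mean and likewise not annotated, was at 969 FPKM in set1∆ set5∆, 520 in set1∆, 1707 in SET5 Y402A, 984 in set5∆ and 1864 in WT. In both, SET5 Y402A and WT had the 2 highest values, and the 3 deletion strains lay below them.

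Of the listed genes for transport across the membrane, 11 of 15 (73.3%) were higher in set1∆ set5∆ than in WT. The shares were 71.25% of all end genes and 50.6% of all features. In set1∆ against WT 10 of 15 (66.7%) were higher, against 60.4% of all end genes and 49.6% of all features. The list was thus near the end genes as a whole. Other transporter genes among the end genes, such as STL1, JEN1 and FET4, were not on it. Of 16 end genes on the transporter list, 15 were compared, with a median of 0.40 for set1∆ set5∆ against WT and 2 (13.3%) at least 2-fold higher, against 15.0% of all end genes and 2.83% of all features. SEO1, a putative permease, was at 5.19 FPKM in set1∆ set5∆, 4.78 in set1∆, 1.81 in SET5 Y402A, 0.708 in set5∆ and 1.62 in WT. HXT9, a hexose transporter, was at 6.24 FPKM in set1∆ set5∆, 5.43 in set1∆, 2.08 in SET5 Y402A, 3.10 in set5∆ and 2.56 in WT. Among the others, HXT15 had a log2 ratio to WT of 0.81, and the maltose permease gene MAL31 had -0.10. GEX1, the copy of GEX2 on the left arm of chromosome III, was too scarce to be compared, at 3.20 FPKM in set1∆ set5∆, 0.330 in set1∆, 0.213 in SET5 Y402A, 0.204 in set5∆ and 0.0732 in WT.

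The 17 genes of the sugar and alcohol enzyme list had a median of 0.39 for set1∆ set5∆ against WT, and 3 (17.6%) were at least 2-fold higher, also near the 15.0% of all end genes. These 17 include SGE1, a membrane transporter gene that is not an enzyme gene of this kind. DSF1, a mannitol dehydrogenase, was at 5.35 FPKM in set1∆ set5∆, 4.89 in set1∆, 1.14 in SET5 Y402A, 1.86 in set5∆ and 1.15 in WT. Its near copy MAN2 was at 7.33 FPKM in set1∆ set5∆, 6.71 in set1∆, 3.06 in SET5 Y402A, 3.60 in set5∆ and 3.02 in WT. AAD15, a putative aryl-alcohol dehydrogenase, was at 3.36 FPKM in set1∆ set5∆, 2.30 in set1∆, 1.62 in SET5 Y402A, 0.645 in set5∆ and 0.911 in WT. In the mannitol dehydrogenase genes set1∆ was close to the double deletion, and in AAD15 it lay between it and the rest. The sorbitol dehydrogenase genes SOR1 and SOR2 had log2 ratios to WT of 0.71 and 0.73 in the double deletion, and ADH4 had -0.37. The regulators MAL33 and RDS1 had -0.15 and 0.07.

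The 13 vitamin, sulfur and cofactor genes were mixed, with a median of 0.13 and 2 genes (15.4%, against 15.0% of all end genes) at least 2-fold higher in set1∆ set5∆ than in WT. THI12, which makes the pyrimidine part of thiamine, was at 5.32 FPKM in set1∆ set5∆, 4.27 in set1∆, 1.59 in SET5 Y402A, 1.85 in set5∆ and 1.65 in WT. Its copy THI13 was at 4.72 FPKM in set1∆ set5∆, 3.91 in set1∆, 1.80 in SET5 Y402A, 1.93 in set5∆ and 1.79 in WT. The formate dehydrogenase gene FDH1 was just under the limit, at 5.89 FPKM in set1∆ set5∆, 5.54 in set1∆, 2.18 in SET5 Y402A, 2.32 in set5∆ and 2.45 in WT. The THI genes and FDH1 shared an order in which the strains without SET1 stood above the other 3. FEX1 and FEX2, which export fluoride, were lower in the double deletion than in WT, with log2 ratios of -0.41 and -0.36.

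All 4 compared genes of the stress list, YPS5, YPS6, HSP32 and HSP33, were at least 2-fold higher in set1∆ set5∆ than in WT and in set1∆ than in WT, with medians of 1.45 and 1.33. Over all features the shares were 2.83% and 2.37%. HSP32 and HSP33 reached the mean of 1 FPKM only through the strains without SET1, so being compared already required them to be high there. HSP33, a member of the Hsp31 family that detoxifies methylglyoxal, was at 2.96 FPKM in set1∆ set5∆, 2.97 in set1∆, 0.649 in SET5 Y402A, 0.263 in set5∆ and 0.445 in WT. HSP32 was at 2.19 FPKM in set1∆ set5∆, 2.63 in set1∆, 0.681 in SET5 Y402A, 0.265 in set5∆ and 0.339 in WT. SNO4, a further copy with too low a mean to be compared, was at 2.28, 2.16, 0.303, 0.0252 and 0.0484 FPKM in the same order. In the 3 Hsp31 relatives the double deletion and set1∆ were alike and the other strains far lower. These copies share most of their sequence, as do the THI genes, FDH1, HXT9, MAN2 and DSF1 with their own copies, so reads could have been divided between them.

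The enolase-related genes and the inosine monophosphate dehydrogenase gene IMD2 went separate ways. ERR1 and ERR2 were each at 2.70 FPKM in set1∆ set5∆, 1.97 in set1∆, 0.556 in SET5 Y402A, 0.358 in set5∆ and 0.586 in WT. ERR3, not compared for its low mean, was at 2.83 FPKM in set1∆ set5∆, 1.17 in set1∆, 0.196 in SET5 Y402A, 0.151 in set5∆ and 0.190 in WT. IMD2, which makes guanine nucleotides, was at 106 FPKM in set1∆ set5∆, 81.3 in set1∆, 162 in SET5 Y402A, 150 in set5∆ and 124 in WT. The ERR genes were highest where SET1 was missing, and IMD2 was lowest there. ERR1 and ERR2 reached the mean of 1 FPKM only through the strains without SET1. Being compared thus already required them to be high there. Their values were identical in every strain and their sequence is not unique in the genome, so they are not separate measurements. VTH1 and VTH2, copies of the vacuolar sorting receptor gene, had log2 ratios to WT of 0.19 and 0.22 in the double deletion. No end gene was on the cell wall and hypoxia list.

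Several end genes were listed at 0 in some strains, and the zeros were unevenly placed. Of all 264, 0 were listed at 0 in set1∆ set5∆, 4 in set1∆, 9 in SET5 Y402A, 12 in set5∆ and 13 in WT. Over all 6663 features the same counts were 20, 21, 56, 68 and 76. YFR057W, the outermost gene at the right end of chromosome VI and unique in sequence, was at 6.57 FPKM in set1∆ set5∆, 0.986 in set1∆ and 0.150 in SET5 Y402A, and was listed at 0 in set5∆ and WT. YCR108C, outermost on the right arm of chromosome III, was at 6.84 FPKM in set1∆ set5∆, 1.46 in set1∆ and 2.23 in set5∆, and was listed at 0 in SET5 Y402A and WT. YMR324C was at 5.01 FPKM in set1∆ set5∆ and 2.68 in set1∆, and was listed at 0 in the other 3 strains. For each of these the double deletion had the highest value, and no fold is given against a strain listed at 0. TYC1 and YHL048C-A, both short, had larger values and less order. TYC1 was at 68.2 FPKM in set1∆ set5∆, 39.1 in set1∆ and 52.7 in set5∆, and was listed at 0 in SET5 Y402A and WT. YHL048C-A was at 56.3 FPKM in set1∆ set5∆, 23.7 in set1∆ and 21.1 in SET5 Y402A, and was listed at 0 in set5∆ and WT.

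Where SET5 loss was added to set1∆, the genes with the largest excess, among those above 0 in every strain, were mostly uncharacterised. YOR394C-A, at place 2 on the right arm of chromosome XV, was at 13.9 FPKM in set1∆ set5∆, 6.14 in set1∆, 10.4 in SET5 Y402A, 8.69 in set5∆ and 8.82 in WT. YEL074W, at place 4 on the left arm of chromosome V, was at 14.0 FPKM in set1∆ set5∆, 7.41 in set1∆, 10.8 in SET5 Y402A, 9.72 in set5∆ and 8.92 in WT. In both, set1∆ was the lowest strain and the double deletion the highest. YER188W, at place 3 on the right arm of chromosome V and unique in sequence, was at 17.2 FPKM in set1∆ set5∆, 11.3 in set1∆, 15.3 in SET5 Y402A, 13.0046 in set5∆ and 9.25 in WT. YAR075W, the outermost feature on the right arm of chromosome I, was at 7.34 FPKM in set1∆ set5∆, 2.64 in set1∆, 3.56 in SET5 Y402A, 2.86 in set5∆ and 2.47 in WT, so that the double deletion was far above the rest.

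Some end genes were high in the SET5 mutants and not in the double deletion. YMR320W, at place 6 on the right arm of chromosome XIII, was at 53.9 FPKM in SET5 Y402A and 52.3 in set5∆, against 35.3 in set1∆ set5∆, 30.3 in set1∆ and 35.4 in WT. BDH2, a putative butanediol dehydrogenase at place 8 on the left arm of chromosome I, was at 20.8 FPKM in SET5 Y402A and 17.9 in set5∆, against 12.5 in set1∆ set5∆, 11.5 in set1∆ and 13.4 in WT. YAR064W was at 22.7 FPKM in SET5 Y402A and 23.0 in set5∆, against 11.8 in set1∆ set5∆, 8.70 in set1∆ and 13.3 in WT. The substitution and the deletion of SET5 gave like values in these 3 genes. YJL222W-B, a feature absent from the annotation, was higher in every mutant, at 52.6 FPKM in set1∆ set5∆, 69.96 in set1∆, 73.3 in SET5 Y402A and 33.0 in set5∆, against 8.89 in WT.

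Of a list of 30 genes that build and regulate silent chromatin, 0 were at least 2-fold higher or lower in any of the 6 comparisons. Over all features the shares in set1∆ set5∆ against WT were 2.83% and 0.520%, so a count of 0 among 30 is near the background. Their median in set1∆ set5∆ against WT was -0.10. SIR2 was at 18.9 FPKM in set1∆ set5∆, 22.4 in set1∆, 27.3 in SET5 Y402A, 16.2 in set5∆ and 31.4 in WT. SIR3 was at 19.7 FPKM in set1∆ set5∆, 19.4 in set1∆, 14.7 in SET5 Y402A, 14.3 in set5∆ and 14.2 in WT. SIR2 was thus highest in WT and lowest in set5∆. Its part in the end gene values was not tested. SIR1, itself an end gene at place 6 on the right arm of chromosome XI, was at 9.32 FPKM in set1∆ set5∆, 10.1 in set1∆, 9.22 in SET5 Y402A, 8.58 in set5∆ and 7.98 in WT. The silent mating gene HMLALPHA2, on the left arm of chromosome III, was at 28.3 FPKM in set1∆ set5∆, 32.4 in set1∆, 34.9 in SET5 Y402A, 31.1 in set5∆ and 28.1 in WT, and its sequence is not unique in the genome. Its neighbour HMLALPHA1, likewise not unique, was too scarce to be compared. It was at 0.260 FPKM in set1∆ set5∆, 0.115 in set1∆, 0.238 in SET5 Y402A, 0.0594 in set5∆ and 0.210 in WT.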

How the data were processed

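The authors deposited 1 table of FPKM for 5 strains, with the 2 replicates of each strain combined by a step that no label describes. The unit was taken from the values, since the header names none. Per the submitters' processing notes the tools included Cufflinks 2.0.2 and Cuffdiff, TopHat2 2.0.5, R 2.15.1 and FastQC; their roles are not stated. Libraries were made from 8 µg of total RNA per the labels' protocols, with a kit that leaves strand unmarked. No source used here names the genome build, so no coordinates are printed. The table had 0 unused columns.

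Features whose mean reached 1 FPKM entered 6 comparisons, as log2 ratios with a pseudocount of 1, made with Python 3.11.15, pandas 2.3.3 and matplotlib 3.10.9. With 1 value per strain no test was possible, and medians and counts past 2-fold were set beside those of all features. Names, gene classes, overlaps and the percentage of each gene's 50-mers that are unique in the genome came from RefSeq assembly R64. Genes were named by comparison (the 10 highest and 10 lowest end genes above 0 in every strain, and reaching 10 FPKM in the higher of the pair) and from role lists; others, such as those listed at 0 or standing next to named genes, were chosen after their values were seen. The end genes and lists were chosen with earlier results of these data known. The counting was tested on simulated data.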

Additional observations from a re-analysis of the deposited data

How the results depend on the processing

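No paired analysis was possible because the table holds 1 value per strain and no replicate numbers. For the same reason no replicate could be left out. Of 266 recomputed values, 199 stayed within 0.1 (log2 medians) or 1.5 times (counts) and 67 moved. The cause of the moves was not tested. The medians of set1∆ set5∆ were above 0 in 14 of 14 settings, from 0.06 to 0.37 against WT, 0.09 to 0.26 against set1∆ and 0.07 to 0.41 against set5∆; for set1∆ against WT it was 12 of 14, from -0.06 to 0.09. At places 1 to 4 the median of set1∆ set5∆ against set1∆ ran from 0.20 to 0.30 and moved under none of the settings run for it. The counts past 2-fold that follow are given without a share over all features, which was not recomputed for changed pseudocounts, level filter or scaling. They show only how the counts of end genes moved, not whether these exceeded the background. With a pseudocount of 0.1, end genes at least 2-fold higher numbered 35 for set1∆ against WT and 8 for set5∆ against WT, and those at least 2-fold lower numbered 4 for set1∆ against WT, 6 for set5∆ against WT, 3 for set1∆ set5∆ against WT and 2 for set1∆ set5∆ against set5∆. With a pseudocount of 5, end genes at least 2-fold higher numbered 6 for set1∆ against WT, 2 for set5∆ against WT, 4 for SET5 Y402A against WT, 11 for set1∆ set5∆ against WT, 1 for set1∆ set5∆ against set1∆ and 8 for set1∆ set5∆ against set5∆, and those at least 2-fold lower numbered 1 for set1∆ against WT and 1 for set5∆ against WT. The median was 0.20 for set1∆ set5∆ against set5∆. By place, the median of set1∆ set5∆ against WT was 0.30 at places 1 to 4. Among features of at least 10 FPKM, end genes at least 2-fold higher numbered 5 for set1∆ against WT, 3 for set5∆ against WT, 7 for set1∆ set5∆ against WT, 1 for set1∆ set5∆ against set1∆ and 3 for set1∆ set5∆ against set5∆, and those at least 2-fold lower numbered 1 for set1∆ against WT and 1 for set5∆ against WT. The median was -0.017 for set1∆ against WT, 0.0658 for set1∆ set5∆ against WT and 0.0961 for set1∆ set5∆ against set5∆. By place, the median of set1∆ set5∆ against WT was 0.30 at places 1 to 4 and -0.0167 at places 5 to 8. After quantile normalization, end genes at least 2-fold higher numbered 14 for set1∆ against WT, 20 for set1∆ set5∆ against WT and 15 for set1∆ set5∆ against set5∆, and those at least 2-fold lower numbered 5 for set1∆ against WT, 3 for set1∆ set5∆ against WT and 6 for set1∆ set5∆ against set5∆. The median was -0.0605 for set1∆ against WT, 0.0559 for set1∆ set5∆ against WT and 0.0689 for set1∆ set5∆ against set5∆. By place, the median of set1∆ set5∆ against WT was 0.20 at places 1 to 4 and -0.0357 at places 5 to 8. With 5 numbers per arm, end genes at least 2-fold higher numbered 15 for set1∆ against WT, and those at least 2-fold lower numbered 1 for set1∆ against WT. The median was 0.41 for set1∆ set5∆ against set5∆. Among end genes at least 95% unique, end genes at least 2-fold higher numbered 6 for set1∆ against WT, 1 for set5∆ against WT, 2 for SET5 Y402A against WT, 8 for set1∆ set5∆ against WT, 1 for set1∆ set5∆ against set1∆ and 8 for set1∆ set5∆ against set5∆, and those at least 2-fold lower numbered 0 for set1∆ against WT, 0 for set5∆ against WT and 0 for set1∆ set5∆ against WT. The median was 0.0846 for set1∆ set5∆ against WT and 0.0918 for set1∆ set5∆ against set5∆. By place, the median of set1∆ set5∆ against WT was 0.0238 at places 5 to 8. Among annotated coding genes, end genes at least 2-fold higher numbered 15 for set1∆ against WT, 2 for set5∆ against WT, 3 for SET5 Y402A against WT and 22 for set1∆ set5∆ against set5∆, and those at least 2-fold lower numbered 1 for set1∆ against WT, 1 for set5∆ against WT and 0 for set1∆ set5∆ against WT. With 12 numbers per arm, end genes at least 2-fold higher numbered 8 for set5∆ against WT and 12 for SET5 Y402A against WT, and those at least 2-fold lower numbered 2 for set1∆ set5∆ against set5∆. The median was 0.18 for set1∆ set5∆ against set5∆. Among end genes above 0 in every strain, a setting added after seeing the data, end genes at least 2-fold higher numbered 2 for set5∆ against WT and 2 for set1∆ set5∆ against set1∆.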

Other observations

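Several end genes that growing cells need were at like levels in the double deletion and WT, and others were not. RPN12 and PRE4, for subunits of the proteasome, were at 228 and 288 FPKM in set1∆ set5∆ and 232 and 292 in WT. PKC1, protein kinase C of the cell wall integrity pathway, was at 33.1 FPKM in set1∆ set5∆ and 32.3 in WT, and ERG13, of sterol synthesis, at 289 and 302. RSC9, for a subunit of a chromatin remodeller, was at 55.3 FPKM in set1∆ set5∆ and 67.1 in WT, and ERO1, for oxidative protein folding, at 71.5 and 79.7. All 6 were picked after their values were seen, with no list behind them.

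By length, 15 compared end genes were under 300 bp in the annotation, and 5 of these were at least 2-fold higher in set1∆ set5∆ than in WT, as were 21 of the 175 longer ones. Over all features compared, 39 of 300 under that length and 112 of 5655 longer ones (1.98%) were. Among the end genes the median log2 ratios were 0.60 for the short and 0.25 for the longer ones. Of the 5 short genes 3 were listed at 0 in some strain, and of the 21 longer ones 1 was. In set1∆ set5∆ against set1∆, 9 of the 15 short genes and 137 of the 175 longer ones were higher, with medians of 0.23 and 0.14. Over all features it was 108 of 300 and 2879 of 5655.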
